A study of Mus musculus with 12 samples.

Results

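The genes described here were 6 components of Hedgehog signalling, Gas1, Ptch1, Smo, Sufu, Gli1 and Gli3, and the glypican Gpc4. They were taken by name from the 770 mouse mRNAs of an nCounter cancer pathway panel, and all 7 were present. The set was chosen by measured values, namely the levels of Gas1 and Gpc4 in the 2 cell lines in these same samples, so the comparison of the lines is given for the members as a description without a test. Of the 7 genes, 5 were above the detection floor in at least 1 of the 12 samples, and Gli1 and Gli3 were above it in none.

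Hedgehog proteins are secreted ligands that bind the membrane receptor PTCH1. Without ligand, PTCH1 holds back SMO, a membrane protein of the G protein-coupled receptor family, and SUFU retains the GLI transcription factors in the cytoplasm, where GLI3 is processed into a repressor. Ligand binding relieves this block, activated GLI factors enter the nucleus, and they induce Gli1 and Ptch1 themselves, which are therefore the common readouts of the pathway. GAS1 (growth arrest specific) is a membrane protein that helps present the ligand to PTCH1. GPC4 is a heparan sulphate proteoglycan tethered to the cell surface, and glypicans bind growth factors of the Hedgehog, Wnt, FGF and BMP families. In the liver the pathway is known from bile duct and stellate cells and from regeneration, and hepatocytes in health show little of it.

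The samples were cultures of 2 mouse liver tumour lines, each under a control and a silencing condition, with 3 biological replicates in each of the 4 groups. AKT/NRAS cells came from a hepatocellular carcinoma raised by injecting plasmids for myristoylated, loxP-flanked AKT and activated NRAS into the tail vein of a mouse. AKT Cre/NRAS cells were made from this line by transfection with Cre recombinase, which removes the AKT transgene, so that all 4 groups carried NRAS. Each line received either an siRNA pool against Dusp4, the gene of a phosphatase that inactivates ERK, or a negative control pool (SCR). Each genotype was represented by 1 line, and whether the Cre-treated line was a clone is not given in the sources used here. Removal of AKT and any other difference between the lines therefore cannot be told apart.

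Values are normalized counts, that is barcode counts per sample after scaling to 15 reference genes, with values at or under a common floor of 27.1 set to it. The 12 samples held 641790 to 1081646 barcode counts above the floor, and the highest negative control probe of any sample had 20 counts. Akt1 stood at 18170 to 20228 in the AKT/NRAS samples and at 337 to 587 in the AKT Cre/NRAS samples. Dusp4 fell with the siRNA from 1228 ± 43.8 to 370 ± 19.7 in AKT/NRAS (SD, n = 3; log2 difference -1.73, limma adjusted p = 1.13e-06) and from 5556 ± 963 to 4023 ± 221 in AKT Cre/NRAS (log2 difference -0.45, limma adjusted p = 0.0178). The AKT Cre/NRAS SCR samples stood apart. There the log2 ratio of the reference genes Rpl19 to Polr2a was 5.48 to 6.88. The ratio was 4.72 to 5.03 in AKT Cre/NRAS siRNA and 3.81 to 3.92 in the 6 AKT/NRAS samples. Rpl19 was among the 15 genes used for scaling and Polr2a was not. After scaling, Rpl19 itself still ran from 45504 to 86725 within AKT Cre/NRAS SCR. The siRNA comparisons in AKT Cre/NRAS also moved with the choice of reference genes, and ranges over 7 scalings are given beside the members' results.

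Of 5 fibroblast markers, Pdgfrb, Col1a2 and Col3a1 were at the floor in all 12 samples, Col1a1 did not exceed 47.5, and Pdgfra is described with the pathway genes further on. The summed level of the 5 fibroblast markers, which is 135 when all are at the floor, was 142 to 186 in AKT/NRAS and 350 to 594 in AKT Cre/NRAS. Of the endothelial markers, the receptor Kdr was at the floor throughout, while Flt1 was 933 to 1403 in AKT/NRAS and 239 to 495 in AKT Cre/NRAS. Of the leukocyte markers, Csf1r and Flt3 were at the floor throughout and Cd14 was at 1323 to 1790 in all samples. Of the 4 biliary or progenitor markers on the panel, Sox17 was at the floor throughout and Prom1 in AKT/NRAS, and the summed level of the 4, mostly Spp1, was 15375 to 19960 in AKT/NRAS and 101999 to 161854 in AKT Cre/NRAS. The part of other cell types in the results was not tested. In RNA of a whole culture, more cells expressing a gene and more RNA per cell cannot be told apart.

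Gas1 lies on chromosome 13 and Gpc4 on chromosome X, so the pair shares no locus. According to RefSeq on GRCm38.p6, Gas1 spans chr13:60174405-60177535 and Gpc4 spans chrX:52051007-52164923, both on the minus strand. Ptch1 and Gli3 are on chromosome 13 as well, and the gap between the spans of Gas1 and Ptch1 is 3.33 megabases. The RefSeq promoter table held 6 of the 7 members, all but Gli1. The 250 bases before the start of Gas1 (chr13:60177536-60177785) and Gpc4 (chrX:52164924-52165173) are shown, 5′ to 3′ on the gene's strand, because these are the promoter regions of the 2 genes that were at or near the floor in one line and high in the other. Capitals mark the only match to any of the 4 motifs searched on both strands, the GC box GGGCGG, which reads CCGCCC here since it lies on the opposite strand.
Gas1 promoter: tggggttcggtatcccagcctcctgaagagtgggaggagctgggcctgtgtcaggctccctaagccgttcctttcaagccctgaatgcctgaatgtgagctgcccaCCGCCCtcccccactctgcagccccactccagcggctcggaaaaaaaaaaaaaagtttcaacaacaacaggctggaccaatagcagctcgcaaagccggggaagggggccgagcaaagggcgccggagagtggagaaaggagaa
Gpc4 promoter: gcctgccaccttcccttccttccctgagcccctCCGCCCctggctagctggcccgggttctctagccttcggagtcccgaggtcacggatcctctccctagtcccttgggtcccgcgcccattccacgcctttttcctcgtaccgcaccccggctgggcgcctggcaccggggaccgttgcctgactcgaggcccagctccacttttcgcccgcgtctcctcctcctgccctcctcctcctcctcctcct
The match begins 144 bases before the Gas1 start and 217 bases before the Gpc4 start, and 32.7% of all 32851 promoter entries hold a GC box in the same 250 bases. None of the 6 member promoters matched the Gli consensus GACCACCCA (0.225% of all entries), the AP-1 site TGANTCA (6.75%) or the ETS site CCGGAAGT (2.88%). The Gas1 region is of middling base composition, with 58.8% G and C and 10 CpG pairs, against a median of 52.4% G and C over all entries. The Gpc4 region is richer, with 68.4% G and C and 18 CpG pairs. These matches describe letters in a window and not binding.

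Gas1 was almost undetected in AKT/NRAS and high in AKT Cre/NRAS. Under SCR, AKT/NRAS samples 1 to 3 had 30.9, 33.6 and 27.1 normalized counts of Gas1, the last at the floor. The 2 values above the floor rest on 32 and 29 barcodes, with exact 95% Poisson intervals of 21.9 to 45.2 and 19.4 to 41.6 that cover counting error only, where the highest negative controls of those samples had 15 and 12. Under Dusp4 siRNA all 3 AKT/NRAS samples were at the floor. In AKT Cre/NRAS, Gas1 was 1543, 1333 and 1112 under SCR and 1813, 1721 and 1552 under siRNA. Every AKT Cre/NRAS sample was far above every AKT/NRAS sample. The ratio of means was 43.5 under SCR, where 1 of the 3 AKT/NRAS samples was at the floor, and at least 62.6-fold under siRNA. Across the 7 scalings tried, these ratios ran from 34.0 to 63.0 and from 57.1 to 91.0.

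Gpc4 followed the same course. All 6 AKT/NRAS samples were at the floor for Gpc4. In AKT Cre/NRAS, Gpc4 was 1307, 1162 and 977 under SCR and 1463, 1429 and 1437 under siRNA, so that the lowest sample of this line was at least 36.1-fold above the other line. Mean Gpc4 was at least 42.4-fold higher under SCR (32.1 to 67.2 across the scalings) and at least 53.3-fold higher under siRNA (48.7 to 77.8). Most of the panel differed between the lines as well, since 76.9% of 515 genes passed the threshold under SCR and 74.5% of 522 under siRNA, and 79.8% and 76.6% did not overlap between the lines. On the panel, 16 genes were at the floor in all 6 AKT/NRAS samples and above it in all 6 AKT Cre/NRAS samples. Another 12 genes showed the reverse pattern, at up to 1956 in AKT/NRAS. Gpc4 was the highest of the 16, and the next was Mgmt, a DNA repair gene singled out after its values were seen, at 256 to 419. Gas1 was kept out of the 16 only by the 2 SCR samples just above the floor. No other glypican, syndecan or enzyme of heparan sulphate synthesis from a list of 17 was among the genes analysed here. Ret, the receptor tyrosine kinase to which GAS1 can also bind, was at the floor in all 12 samples.

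**Figure D1:**
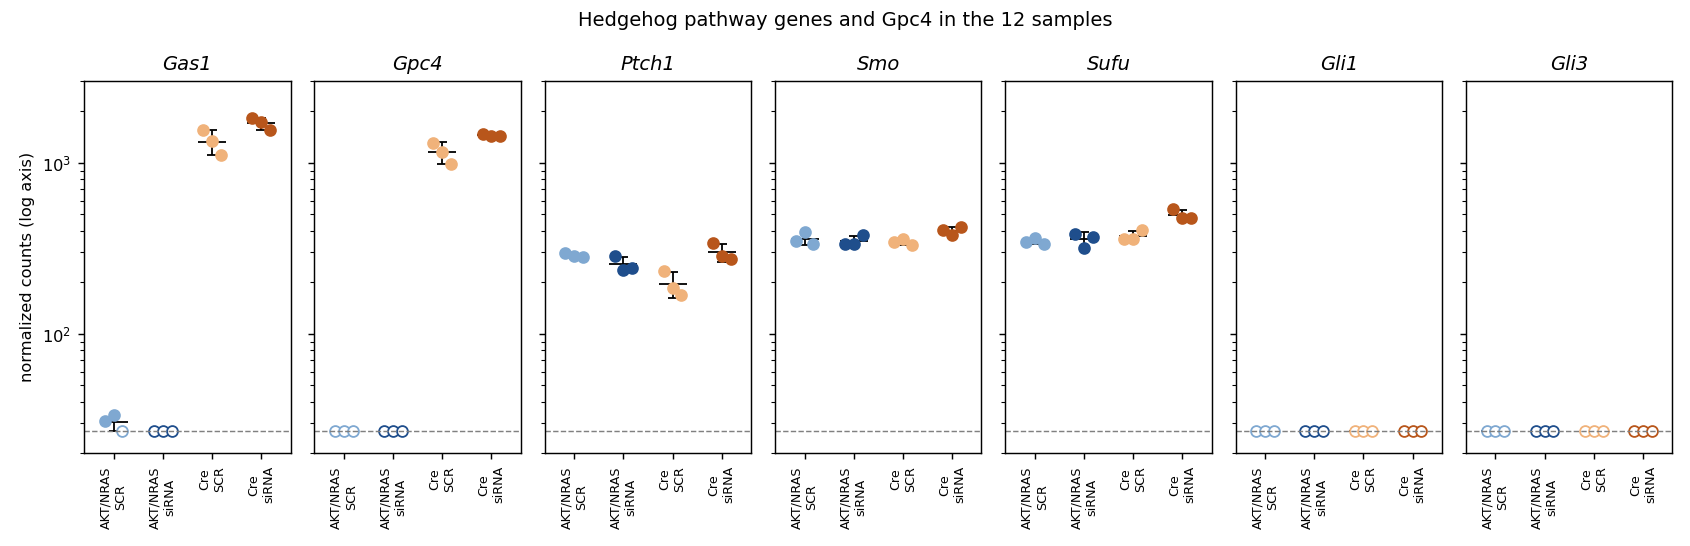
Normalized counts (log axis) of the 7 genes in each sample of the 4 groups, with Cre standing for AKT Cre/NRAS; points are single samples, open where the value is at the floor (dashed line at 27.1), and black bars give the mean ± SD of 3 replicates. Gas1 and Gpc4 lie at or near the floor in AKT/NRAS and at 977 to 1813 in AKT Cre/NRAS, Ptch1, Smo and Sufu lie between 169 and 538 in all groups, and Gli1 and Gli3 are at the floor everywhere.

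Among the 6 AKT Cre/NRAS samples the log2 ratio of Gas1 to Gpc4 within a sample, in which a factor per sample cancels, lay between 0.11 and 0.31. Of 524 other genes measured over the 12 samples, Gpc4 was the closest to Gas1 and Gas1 the closest to Gpc4, with a root mean square difference of 0.12 between their centred log2 profiles. The median over the genes compared was 2.88 for Gas1 and 2.80 for Gpc4. The next nearest to both were Igfbp3, a binding protein of insulin-like growth factors (0.66 from Gas1 and 0.58 from Gpc4), Etv4, an ETS transcription factor downstream of ERK (0.74 and 0.67), Hmga2, an oncofetal chromatin protein (0.85 and 0.78), and Wnt7b, a Wnt ligand (0.87 and 0.82). Igfbp3, for example, had 46.7 ± 5.81 normalized counts in AKT/NRAS SCR and 975 ± 156 in AKT Cre/NRAS SCR. These profiles share the same 12 libraries, and the likeness of Gas1 to Gpc4 follows in part from their choice for the same line difference and from values set to the floor, so it is given as a description.

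**Figure D2:**
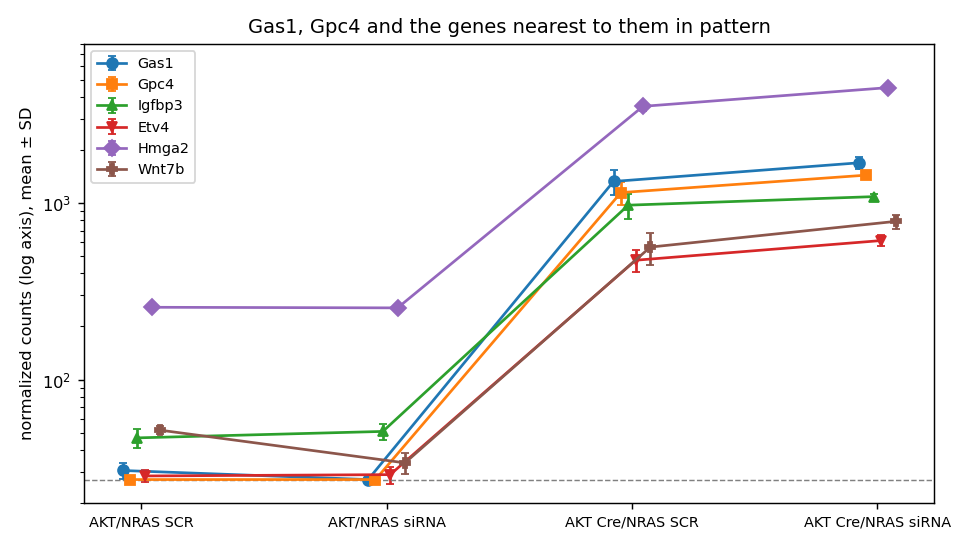
Mean ± SD (n = 3) of normalized counts on a log axis for Gas1, Gpc4 and the 4 genes nearest to them in pattern over the 4 groups; the dashed line is the floor of 27.1 and the lines between points only guide the eye. Gas1 and Gpc4 nearly overlie each other, while Igfbp3, Etv4, Hmga2 and Wnt7b take the same step between the lines at other levels.

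Ptch1, the receptor and at the same time a target of the pathway, was measured in every sample and did not share the switch of Gas1. Ptch1 was 298, 284 and 280 in AKT/NRAS SCR, 285, 237 and 243 in AKT/NRAS siRNA, 234, 185 and 169 in AKT Cre/NRAS SCR, and 338, 284 and 273 in AKT Cre/NRAS siRNA. The 3 AKT Cre/NRAS SCR samples were the lowest of all 12, and the other groups overlapped each other. By mean the order of the groups for Ptch1 was AKT Cre/NRAS siRNA (299 ± 34.6), AKT/NRAS SCR (287 ± 9.33), AKT/NRAS siRNA (255 ± 26.1) and AKT Cre/NRAS SCR (196 ± 33.4), and only the last did not overlap its neighbour. Between the lines the log2 difference of Ptch1 under SCR was -0.56 and varied from -0.98 to -0.06 over the scalings, and under siRNA it was 0.23 (0.17 to 0.33).

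Smo, the signal transducer, hardly varied. Smo was 350, 394 and 336 in AKT/NRAS SCR, 333, 336 and 376 in AKT/NRAS siRNA, 342, 358 and 331 in AKT Cre/NRAS SCR, and 402, 377 and 421 in AKT Cre/NRAS siRNA. The first 3 groups overlapped, with means of 360 ± 30.3, 348 ± 23.9 and 344 ± 13.6, and the AKT Cre/NRAS siRNA mean was 400 ± 22.0. The difference between the lines under SCR was -0.06 on the log2 scale and changed sign with the scaling (-0.48 to 0.44).

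Sufu, the inhibitor of GLI factors, was highest in AKT Cre/NRAS siRNA. Sufu was 345, 361 and 335 in AKT/NRAS SCR, 383, 316 and 368 in AKT/NRAS siRNA, 358, 359 and 405 in AKT Cre/NRAS SCR, and 538, 475 and 476 in AKT Cre/NRAS siRNA. The last group lay above the other 9 samples, which overlapped. Between the lines Sufu differed by 0.48 on the log2 scale under siRNA, without overlap in any of the 7 scalings (0.42 to 0.58), and by 0.11 under SCR, where the sign changed with the scaling (-0.31 to 0.61). In profile the nearest genes were Setd2 and Mllt4 for Ptch1 (root mean square difference 0.09 and 0.10), Fancf for Smo (0.05), and Kdm6a and Pik3r5 for Sufu (0.10 and 0.11). Pik3r5 was at the floor outside AKT Cre/NRAS siRNA, where its mean was 34.1, so its profile was largely set by the floor.

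Gli1, the transcriptional readout of the pathway, and Gli3, its repressor, stood at the deposited floor of 20 in all 12 samples. Neither was detectable at this depth in either line, with or without Dusp4 siRNA, and no comparison was made for them. Hhip, a decoy receptor that is also a Gli target, was at the common floor in all 12 samples too. No Hedgehog ligand was among the genes analysed here.

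In AKT Cre/NRAS, 4 of the 5 measured members rose with Dusp4 siRNA under the main scaling, and the fifth, Smo, did not pass. Across the panel 45.9% of 503 genes passed the threshold in this comparison and 40.6% rose, and 50.7% of the genes were higher without overlap between the groups, as all 5 members were. The median log2 difference over the panel was 0.23 and that of the members was 0.36, so an upward shift was shared by much of the panel. Ptch1 rose by 0.61 ± 0.14 on the log2 scale (estimate ± SE, 3 against 3 samples, limma adjusted p = 0.00872), from 169 to 234 in the SCR samples to 273 to 338 in the siRNA samples. Sufu rose by 0.41 ± 0.10 (limma adjusted p = 0.0124). Gpc4 rose by 0.34 ± 0.11 (limma adjusted p = 0.0286) and Gas1 by 0.36 ± 0.12 (limma adjusted p = 0.0329). Smo differed by 0.22 ± 0.10, with a 95% interval of 0.00 to 0.44 (limma adjusted p = 0.0977).

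These calls depended on the scaling. With the deposited values, with each sample re-centred on its median and with quantile normalization, none of the 5 members passed, and with all 20 reference genes 2 did, Ptch1 and Sufu. Ptch1 kept a positive difference in all 7 scalings (0.26 to 1.06) and passed in 4. Sufu ranged from 0.05 to 0.86 and passed in 4, and Gas1 from 0.01 to 0.81 and Gpc4 from -0.02 to 0.79, each passing in 3. Taken relative to the panel median of the same scaling, Ptch1 was higher by 0.35 to 0.42 in all 7, at percentiles 90.6 to 94.2 of the panel. Gas1 was above the panel median by 0.09 to 0.14, Gpc4 by 0.06 to 0.12 and Sufu by 0.03 to 0.19, while Smo was at or below it (-0.10 to 0.00). Leaving out AKT Cre/NRAS siRNA sample 1 ended all 4 calls (adjusted p = 0.0558 for Ptch1, 0.0713 for Sufu, 0.129 for Gas1 and 0.0970 for Gpc4, limma). The Gas1 and Gpc4 calls were also lost without siRNA sample 2, siRNA sample 3 or SCR sample 2, and the Sufu call without SCR sample 2.

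**Figure D3:**
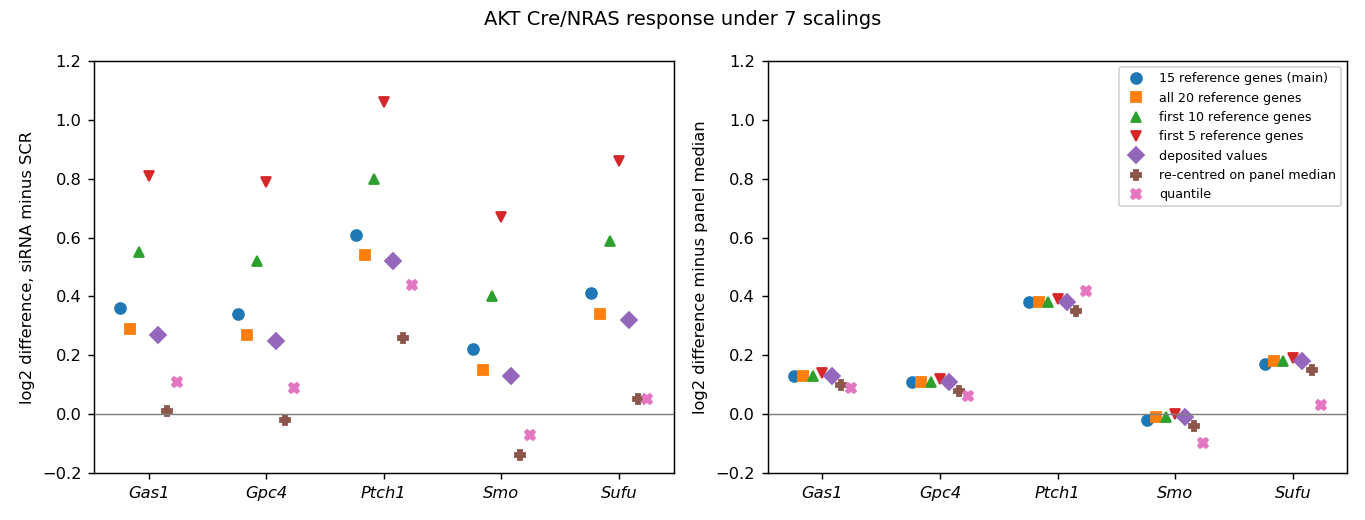
Log2 difference between Dusp4 siRNA and SCR in AKT Cre/NRAS for the 5 measured genes under 7 scalings (left), and the same after subtracting the panel median of that scaling (right); each symbol is the estimate from 3 against 3 samples. The left panel spreads from -0.14 to 1.06, whereas on the right Ptch1 keeps within 0.35 to 0.42 and Smo stays at or below 0.

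In AKT/NRAS the silencing of Dusp4 left no call among the members. Of 4 genes that could be tested, 0 passed in limma and 0 had an unadjusted p under the threshold of 0.05, and across the panel 17.3% of 496 genes passed. The log2 difference was -0.17 ± 0.08 for Ptch1 (95% interval -0.37 to 0.02), -0.05 ± 0.08 for Smo (-0.23 to 0.14), 0.03 ± 0.08 for Sufu (-0.16 to 0.22) and -0.16 ± 0.09 for Gas1 (-0.37 to 0.04), and the groups overlapped for each, as they did not for 34.7% of the panel. For Gas1 all 3 siRNA samples and 1 of the 3 SCR samples were at the floor. Its estimate and interval therefore depend on where the floor lies (-0.54 to -0.07 over the scalings). Gpc4 was at the floor in all 6 samples and was not tested. With the deposited values, where the panel median itself was 0.30, Smo (0.29) and Sufu (0.37) passed. Without AKT/NRAS siRNA sample 1, Ptch1 alone passed, with a log2 difference of -0.26 (limma adjusted p = 0.0440).

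**Figure D4:**
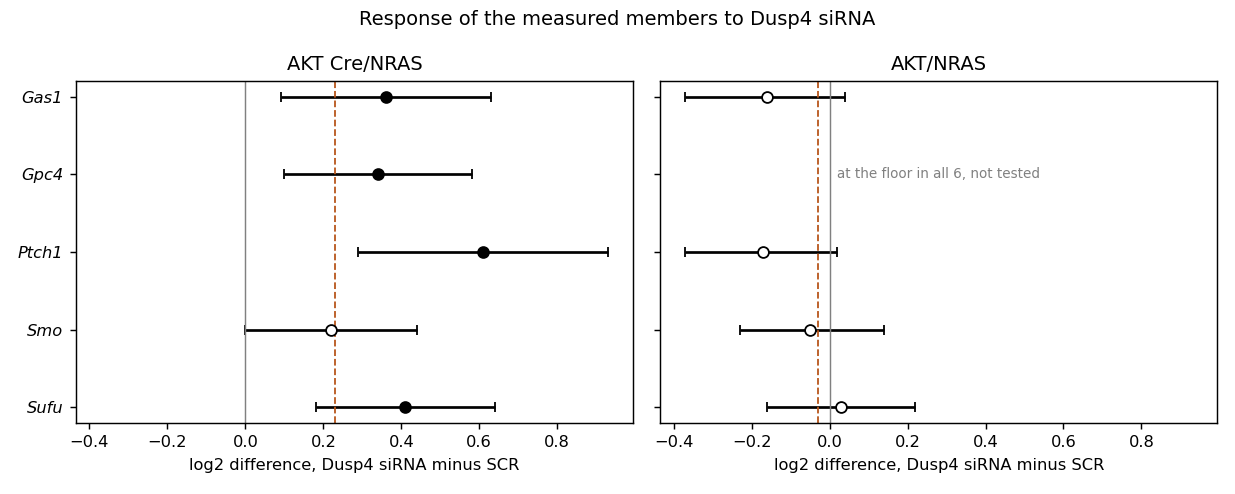
Log2 difference between Dusp4 siRNA and SCR with its 95% interval from limma (3 against 3 samples, main scaling) in AKT Cre/NRAS (left) and AKT/NRAS (right); filled points passed the adjusted threshold of 0.05, and the dashed line is the panel median, 0.23 and -0.03. All 5 genes lie at 0.22 or higher on the left, and the 4 tested on the right lie between -0.17 and 0.03. On the right, Gas1 was at the floor in all 3 siRNA samples and 1 SCR sample, so its point and interval depend on the floor.

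The response to the siRNA was then compared between the lines by an interaction term over all 12 samples. The siRNA minus SCR difference was higher in AKT Cre/NRAS by 0.79 ± 0.18 for Ptch1 (log2 scale, limma adjusted p = 0.00559). For Sufu it was higher by 0.38 ± 0.12 (limma adjusted p = 0.0295). For Ptch1 the term joins 0.61 in AKT Cre/NRAS and -0.17 in AKT/NRAS, so the signs differed. Silencing was unequal, with mean Dusp4 going from 5556 to 4023 in AKT Cre/NRAS and from 1228 to 370 in AKT/NRAS. The bearing of this on the interaction was not tested. Gas1 gave 0.52 ± 0.17 (limma adjusted p = 0.0278), but 4 of its 6 AKT/NRAS values were at the floor, so this estimate depends on where the floor lies. Gpc4 (0.34 ± 0.13, limma adjusted p = 0.0531) and Smo (0.26 ± 0.11, limma adjusted p = 0.0726) did not pass. Since Gpc4 was at the floor in all 6 AKT/NRAS samples, its response there could not be measured. Its term only repeats the AKT Cre/NRAS difference and compares no responses. Over the panel 45.3% of 525 genes passed and 40.6% were higher, with a median of 0.25. For Ptch1 the interaction passed in 6 of 7 scalings (0.36 to 1.27), failing with the deposited values, and when any one of the 12 samples was left out. For Sufu it passed in 3 of 7 scalings and changed sign (-0.05 to 0.86). The Sufu interaction was lost in limma without AKT/NRAS siRNA sample 2, AKT/NRAS SCR samples 1 or 2, AKT Cre/NRAS siRNA sample 1 or AKT Cre/NRAS SCR sample 2 (adjusted p = 0.0564 to 0.0711), and that of Gas1 without AKT/NRAS siRNA sample 3, AKT/NRAS SCR samples 1 or 2, or AKT Cre/NRAS siRNA samples 1 or 2 (0.0520 to 0.0653). With the replicate number as a block the Sufu interaction was lost as well (limma adjusted p = 0.0561). The siRNA and line comparisons share their SCR samples and are not independent of each other.

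In ratios between 2 members within a sample, any scaling by 1 factor per sample cancels, which holds for all scalings tried except quantile normalization. The log2 ratio of Sufu to Ptch1 was 0.27 ± 0.07 in AKT/NRAS SCR and 0.48 ± 0.10 in AKT/NRAS siRNA (SD, n = 3). The ratio was higher in all 3 siRNA samples, by 0.21 (two-sided exact permutation p = 0.1, the smallest that 3 against 3 samples allow; adjusted over 6 ratio tests p = 0.4). In AKT Cre/NRAS the same ratio was 0.94 ± 0.32 under SCR and 0.74 ± 0.07 under siRNA (exact permutation p = 0.4, adjusted p = 0.6). The log2 ratio of Smo to Ptch1 there was 0.82 ± 0.24 under SCR and 0.43 ± 0.19 under siRNA (exact permutation p = 0.2, adjusted p = 0.4). In samples with the same replicate number it was 0.55 and 0.25, 0.95 and 0.41, and 0.97 and 0.62, lower under siRNA in 3 of 3. None of the 6 tests could fall under 0.05 in this design.

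Other genes of the pathway were taken from a list of 43 kinases, adaptors, transcription factors, targets and BMP ligands, of which 24 were on the panel and 19 above the floor. Under SCR, 18 of these 19 differed between the lines, 3 higher and 15 lower in AKT Cre/NRAS, beside 28.9% of all genes higher and 48.0% lower. The median log2 difference of the 19 was -0.80 and that of the panel -0.22. Ccne1 and Bmp6 were at the floor in all AKT Cre/NRAS samples, and Bmp7 in all AKT/NRAS samples. Their calls under SCR and under siRNA were made against the floor, so their differences are bounds. The share called lower depended on the scaling, since with the deposited values 12 passed, 4 higher and 8 lower. Under Dusp4 siRNA 17 of 19 differed, 4 higher and 13 lower, with a median of -0.45 against 0.00 for the panel, which had 36.6% of genes higher and 37.9% lower.

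The intracellular kinases and ubiquitin ligase parts that restrain GLI factors were lower in AKT Cre/NRAS under SCR, 6 of 6 with the main scaling, beside 48.0% of the panel. Under Dusp4 siRNA 4 of 6 were lower, beside 37.9%, and Prkacb (-0.08) and Fbxw11 (-0.05) did not pass. Gsk3b, a kinase that acts in GLI processing, had a log2 difference of -1.46 ± 0.09 under SCR (limma adjusted p = 1.42e-06). It stayed lower in all 7 scalings (-1.88 to -0.96). Prkaca, a catalytic subunit of protein kinase A, which phosphorylates GLI factors, gave -1.01 ± 0.11 (limma adjusted p = 4e-05) and passed in 6 of 7 scalings. Fbxw11 and Spop, substrate adaptors of ubiquitin ligases, gave -0.18 and -0.47, and both changed sign with the scaling. Zic2, a zinc finger factor related to GLI, gave -0.99 ± 0.19 (limma adjusted p = 0.00125).

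Genes described elsewhere as GLI targets went both ways. Of 9 above the floor, 2 were higher and 6 lower in AKT Cre/NRAS under SCR, beside 28.9% of the panel higher and 48.0% lower. Ccne1, among the lower, was at the floor in all AKT Cre/NRAS samples, so its difference is a bound (at least 1.6-fold). Bcl2, also lower, was at the floor in 2 of the 3 AKT Cre/NRAS SCR samples, so its difference under SCR depends on the floor. Pdgfra, a growth factor receptor that is also a mesenchymal marker, was 52.2, 51.0 and 63.8 in AKT/NRAS SCR and 380, 335 and 235 in AKT Cre/NRAS SCR. Its log2 difference was 2.47 ± 0.18 (limma adjusted p = 4.39e-06), and it was 3.39 ± 0.20 under siRNA (limma adjusted p = 3.46e-06). Of the 5 fibroblast markers only 2, Pdgfra and Col1a1, were above the floor and could be tested, and of these Pdgfra passed. The part of other cell types in this was not tested. Mycn, a MYC family oncogene, was 521, 481 and 485 in AKT/NRAS SCR and 77.2, 48.4 and 55.7 in AKT Cre/NRAS SCR, a log2 difference of -3.04 ± 0.17 (limma adjusted p = 6.57e-07). Ccnd2, a D-type cyclin, differed by -2.13 ± 0.09 (limma adjusted p = 1.69e-07) and Jag2, a Notch ligand, by -1.67 ± 0.12 (limma adjusted p = 3.01e-06). Pdgfra, Mycn, Ccnd2 and Jag2 passed in the same direction in all 7 scalings. Ccnd1 did not pass under SCR with the main scaling (0.19 ± 0.10, limma adjusted p = 0.127), but did in 4 of 7 scalings (-0.23 to 0.70). Under siRNA it was higher in AKT Cre/NRAS by 0.66 ± 0.04 (limma adjusted p = 5.39e-06) and passed in all 7. All 9 targets passed under siRNA, 3 higher and 6 lower, beside 36.6% of the panel higher and 37.9% lower.

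The BMP ligands, extracellular factors that glypicans can bind, differed between the lines in which members were present. Bmp2 was 645, 698 and 749 in AKT/NRAS SCR and 83.8, 70.7 and 78.0 in AKT Cre/NRAS SCR, without overlap (log2 difference -3.15 ± 0.11, limma adjusted p = 4.4e-08). Bmp6 was at the floor in all 6 AKT Cre/NRAS samples and was at least 3.79-fold higher in AKT/NRAS under SCR. Bmp7 was at the floor in all 6 AKT/NRAS samples and at 110 to 194 in AKT Cre/NRAS, at least 5.75-fold higher under SCR. Bmp4 was higher in AKT Cre/NRAS by 0.81 ± 0.09 (limma adjusted p = 3.26e-05). Bmp5 and Bmp8a were at the floor throughout.

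**Figure D5:**
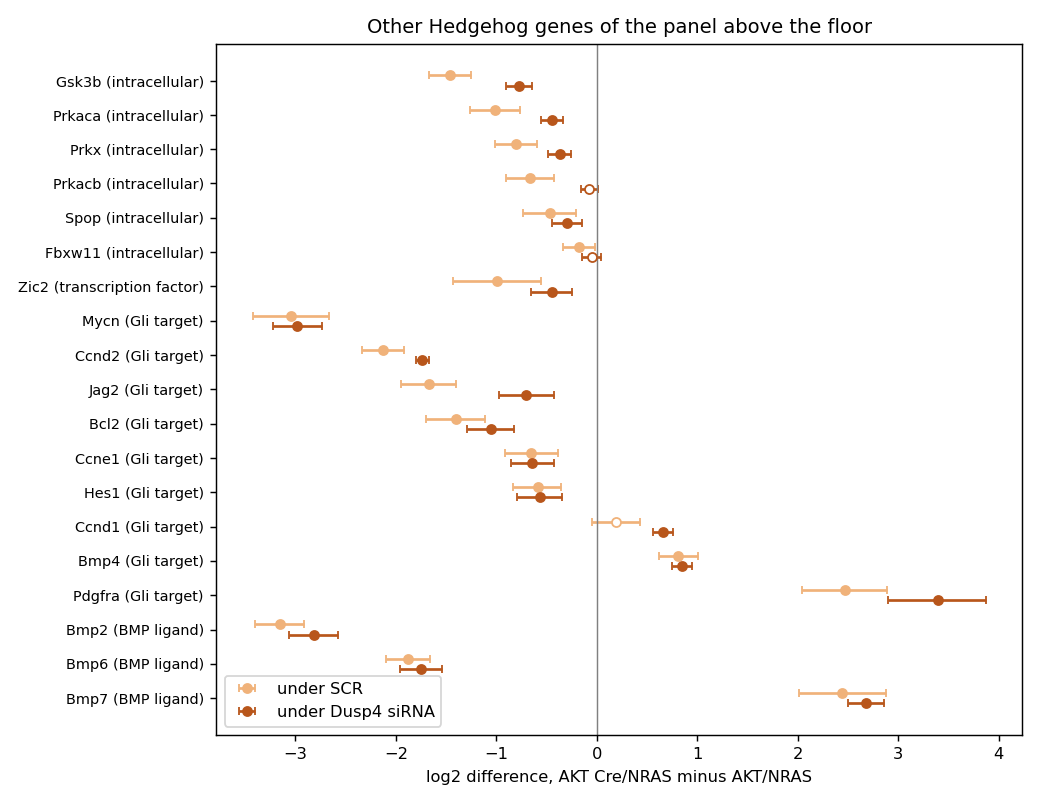
Log2 difference between AKT Cre/NRAS and AKT/NRAS with its 95% interval from limma (3 against 3 samples) for the 19 other Hedgehog genes above the floor, ordered by role, under SCR (light) and Dusp4 siRNA (dark); filled points passed the adjusted threshold of 0.05. Most genes lie left of 0, with Mycn and Bmp2 near -3, while Pdgfra and Bmp7 lie above 2. Ccne1 and Bmp6 were at the floor in AKT Cre/NRAS and Bmp7 in AKT/NRAS, so their points are bounds, which the intervals do not show. Bcl2 was at the floor in 2 of the 3 AKT Cre/NRAS SCR samples, so its light point depends on the floor.

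With Dusp4 siRNA in AKT Cre/NRAS, 9 of 17 tested pathway genes rose and none fell in limma, where 40.6% of the panel rose and 5.37% fell. Jag2 rose by 0.87 ± 0.13 on the log2 scale (limma adjusted p = 0.00329), Gsk3b by 0.58 ± 0.10 (limma adjusted p = 0.00355), Ccnd2 by 0.56 ± 0.09 (limma adjusted p = 0.00329) and Prkacb by 0.56 ± 0.10 (limma adjusted p = 0.00381). Without any one of siRNA samples 1, 2 or 3 or SCR sample 2, 5 of the genes passed. Jag2 and Ccnd2 passed in 6 of 7 scalings and Gsk3b and Prkacb in 5. With the deposited values none of 18 passed, as was the case for all but 1 gene of the panel. In AKT/NRAS 3 of 18 passed, beside 17.3% of the panel. Mycn rose by 0.29 ± 0.06 (limma adjusted p = 0.0190) and Ccnd2 by 0.17 ± 0.04 (limma adjusted p = 0.0176), both in all 7 scalings, and Bmp2 fell by 0.36 on the log2 scale (SE 0.07, limma adjusted p = 0.0176), from 645 to 749 down to 510 to 590. Bmp2 passed in 5 of 7 scalings, with a range of -0.40 to -0.03. Without siRNA sample 3 or SCR sample 2, 1 of the genes passed.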

How the data were processed

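The authors extracted total RNA, hybridized it with the nCounter Mouse PanCancer Pathways Panel, which counts molecules by fluorescent barcodes without amplification, and used nSolver 4.0 with Advanced Analysis 2.0. The deposited signal values are barcode counts multiplied by 1 factor per sample (0.827 to 1.27) taken from 6 positive controls, with everything at or under 20 set to 20; dividing by the factor gave whole counts (within 0.05) for 100% of values under 200 counts. The deposited table held no reference gene step. Reference genes were therefore ranked by pairwise variation over all 12 samples, and the 15 of 20 with the lowest variation were kept. Because the floor hides low counts, no count model was used: limma 3.58.1 (R 4.3.3; lmFit, eBayes with trend) was fitted to log2(value + 1) of genes above the floor in at least 1 sample of the comparison, with Benjamini-Hochberg adjustment over all of them and a threshold of 0.05. Fits held only the groups compared, except the interaction. Python 3.11.15 searched promoters and drew the figures. The exact Poisson intervals and the floors cover counting error only. The limma intervals and the p-values rest on the spread between replicate cultures, and the number of samples limits precision.

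Groups came from the labels. In the siRNA comparison within AKT Cre/NRAS, samples with the same replicate number deviated together (r = 0.194, 0.103 and 0.183 over 503 genes, each highest with its own number); no source states a pairing, which rests on these correlations, and the block is an alternative. All members were named, with up to 4 genes of the largest change for each other list and comparison, the 5 nearest genes for Gas1 and Gpc4 and the 2 nearest for other members, by root mean square difference; a few genes these rules or the marker lists name are not reported here. Members, lists and tests were chosen with earlier results of these data known. The fit was run on simulated counts with independent noise for each gene. These held no shift shared by a whole sample and no scaling step, so they do not test the dependence on scaling. Alternatives were 6 other scalings, the filter, the pseudocount, Benjamini-Yekutieli adjustment (named in the study's methods), 1 fit over all samples, the replicate block and leaving out each sample.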

Additional observations from a re-analysis of the deposited data

Results flagged for a closer look

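The response to Dusp4 siRNA was compared between AKT Cre/NRAS and AKT/NRAS by an interaction term in limma over all 12 samples. The interaction passed for 3 of 5 members and 8 of 19 other pathway genes tested. Gpc4, among the 5, was at the floor in all AKT/NRAS samples, so its term compares no responses. Ptch1, Smo and Sufu were above the floor in every sample of both lines. Among the 19, Ccne1, Bmp6 and Bmp7 were at the floor throughout one line, and none of these passed. On the panel 45.3% passed the same test, so the share of the other pathway genes was near that of the panel. The term is the siRNA minus SCR log2 difference in AKT Cre/NRAS less that in AKT/NRAS. Among the members it was 0.79 for Ptch1 (limma adjusted p = 0.00559), 0.52 for Gas1 (limma adjusted p = 0.0278) and 0.38 for Sufu (limma adjusted p = 0.0295, and 0.0561 with the replicate block). The Gas1 estimate depends on the floor, where all 3 AKT/NRAS siRNA samples and 1 of the 3 AKT/NRAS SCR samples stood. Among the other genes the term was 0.97 for Jag2 (limma adjusted p = 0.00201), 0.92 for Pdgfra (limma adjusted p = 0.0307), 0.69 for Gsk3b (limma adjusted p = 0.00158), 0.59 for Prkacb (limma adjusted p = 0.00292) and 0.56 for Prkaca (limma adjusted p = 0.00584). It was 0.47 for Ccnd1 (limma adjusted p = 0.00882), 0.43 for Prkx (limma adjusted p = 0.00559) and 0.39 for Ccnd2 (limma adjusted p = 0.00616). The panel median of this term was 0.25 with the main scaling and ran from -0.13 to 0.70 with the others. Mean Dusp4 fell less with the siRNA in AKT Cre/NRAS (5556 to 4023) than in AKT/NRAS (1228 to 370). The bearing of this on the terms was not tested.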

How the results depend on the processing

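The line differences of Gas1 and Gpc4 kept their direction under every alternative run. Counts of other pathway genes between the lines stayed within 1.5 times, at 12 to 18 and 16 to 18 over the scalings. The siRNA calls did not. In AKT Cre/NRAS the 4 members became 0 with deposited values, re-centring, quantile normalization, no filter or Benjamini-Yekutieli adjustment and 2 with all 20 reference genes; in AKT/NRAS the 0 became 2 with deposited values; for the interaction the 3 became 0 with deposited values, 1 with re-centring, quantile normalization or Benjamini-Yekutieli adjustment, and 5 with the first 10 or first 5 reference genes. Other pathway genes in AKT Cre/NRAS went from 9 to 0 with deposited values, 4 with re-centring (2 higher, 2 lower), no filter or Benjamini-Yekutieli adjustment and 5 with quantile normalization; in AKT/NRAS from 3 to 9 with deposited values, 5 with the first 5 reference genes and 0 with no filter, Benjamini-Yekutieli adjustment or 1 fit over all samples. Over the whole panel the AKT Cre/NRAS siRNA count was 231, and 1, 168, 93 and 161 with deposited values, re-centring, quantile normalization and all 20 reference genes, 56 without a filter and 70 with Benjamini-Yekutieli adjustment. Reversals were: Gpc4 with re-centring (-0.02 in AKT Cre/NRAS and -0.02 in the interaction); Smo in AKT Cre/NRAS with re-centring (-0.14) and quantile normalization (-0.07), in AKT/NRAS with deposited values (0.29), re-centring (0.01) and quantile normalization (0.05), in the interaction with the same 3 (-0.16, -0.15 and -0.12), and between the lines under SCR with deposited values (0.44), re-centring (0.29), quantile normalization (0.27) and all 20 reference genes (0.11). Ptch1 in AKT/NRAS turned with deposited values (0.16). Sufu turned in AKT/NRAS with the first 10 (-0.01) and first 5 (0.00) reference genes, in the interaction with deposited values (-0.05), re-centring (-0.04) and quantile normalization (-0.04), and between the lines under SCR with the first 10 (-0.17) and first 5 (-0.31). The cause was not tested.

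With single samples left out, members called ranged from 0 to 4 in AKT Cre/NRAS, 0 to 1 in AKT/NRAS and 1 to 4 in the interaction (1 without AKT/NRAS SCR sample 1 or 2 or AKT Cre/NRAS siRNA sample 1), and other pathway genes from 17 to 19 and 17 to 18 between the lines, 5 to 11 in AKT Cre/NRAS and 1 to 4 in AKT/NRAS; Smo in AKT/NRAS ranged from -0.10 to 0.02, Sufu there from -0.02 to 0.11 and Smo between the lines under SCR from -0.11 to 0.00. With the replicate block 4, 0 and 2 members passed in AKT Cre/NRAS, AKT/NRAS and the interaction, Sufu being lost in the last (adjusted p = 0.0561, limma), and 9 and 3 other genes in the siRNA comparisons. In AKT Cre/NRAS, where same-numbered samples deviated together but no source states a pairing, the block changed no member's call. In the other comparisons same-numbered samples did not all deviate together (r from -0.07 to 0.208). At the floor, a gene's level in AKT/NRAS is known only as a bound, which limits every Gas1 and Gpc4 ratio.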

Other observations

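Glypicans also bind Wnt and FGF ligands, and the ligands of these families on the panel were mostly at the floor: 9 of 15 Wnt genes and 19 of 22 Fgf genes in all 12 samples. Those above it differed between the lines under SCR in both directions, 3 of 5 Wnt and 3 of 3 Fgf genes tested, beside 76.9% of the panel. For Wnt16 and Fgf18 all SCR samples of a line were at the floor, so their differences are bounds. Wnt10a was 44.6 ± 8.79 in AKT/NRAS and 581 ± 74.2 in AKT Cre/NRAS (SD, n = 3; log2 difference 3.68, limma adjusted p = 1.74e-07), and Wnt7b was 51.7 ± 2.72 and 564 ± 115 (log2 difference 3.40, limma adjusted p = 1.98e-07). Wnt16 went the other way and was at the floor in all 6 AKT Cre/NRAS samples, at least 9.03-fold lower than the 244 ± 8.52 of AKT/NRAS SCR. Fgf1 was lower in AKT Cre/NRAS (279 ± 2.31 against 761 ± 54.6, log2 difference -1.44, limma adjusted p = 1.03e-06) and Fgf13 higher (265 ± 29.3 against 109 ± 2.26, log2 difference 1.27, limma adjusted p = 1.03e-05).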
